A study of Homo sapiens with 6 samples.

Results

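The genes examined here are 10 genes of the NRF2, glutathione and thioredoxin systems, namely NFE2L2, KEAP1, GCLC, GCLM, GSR, TXNRD1, TXN, SRXN1, HMOX1 and NQO1. They were chosen by name, with earlier results of these data known, and all 10 were found by symbol among the 19470 genes of the count table. RNA was sequenced from HCCC9810, an established human cholangiocarcinoma (CCA) cell line labelled as wild type. The control group of 3 libraries received the vehicle DMSO for 24 h, and the ILL group of 3 libraries received isolinderalactone (ILL), a sesquiterpenoid lactone, at 20 μM for 24 h. The model is therefore a single cell line at 1 dose and 1 time. The labels do not say that the libraries came from separate cultures, so the p-values measure only the spread between these libraries, which may be technical.

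NRF2, the transcription factor encoded by NFE2L2, is held at a low level in resting cells by KEAP1, which presents it to a CUL3 ubiquitin ligase for degradation. When oxidants or electrophiles modify KEAP1, NRF2 accumulates, pairs with a small MAF protein and binds antioxidant response elements. Its known targets include the enzymes that make and recycle glutathione, the thioredoxin reductase system and detoxifying enzymes such as HMOX1 and NQO1.

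The antioxidant response element has the core TGACNNNGC, where N is any base. The sequences that hold this core beside the start of a member gene are shown, whether or not the gene rose. RefSeq promoter windows (GRCh38.p14) were matched by symbol for 8 of the 10 genes, all except GSR and HMOX1, with 11 windows between them. The 250 bases before each annotated start were searched on both strands. Each sequence is written 5′ to 3′ in the direction of the gene, with capitals marking a match to the core on either strand.
GCLM, chr1:93909431-93909680, minus strand: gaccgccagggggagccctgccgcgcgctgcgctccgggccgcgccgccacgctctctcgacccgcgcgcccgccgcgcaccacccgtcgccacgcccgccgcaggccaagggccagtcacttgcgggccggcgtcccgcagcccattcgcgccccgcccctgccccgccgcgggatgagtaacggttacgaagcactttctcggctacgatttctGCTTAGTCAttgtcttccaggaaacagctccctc
TXNRD1, chr12:104215529-104215778, plus strand: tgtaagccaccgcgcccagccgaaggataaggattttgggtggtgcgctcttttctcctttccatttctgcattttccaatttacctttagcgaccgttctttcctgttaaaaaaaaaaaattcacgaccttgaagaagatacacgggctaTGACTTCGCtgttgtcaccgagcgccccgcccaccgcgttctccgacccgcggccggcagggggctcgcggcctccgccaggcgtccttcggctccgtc
TXNRD1, chr12:104286782-104287031, plus strand: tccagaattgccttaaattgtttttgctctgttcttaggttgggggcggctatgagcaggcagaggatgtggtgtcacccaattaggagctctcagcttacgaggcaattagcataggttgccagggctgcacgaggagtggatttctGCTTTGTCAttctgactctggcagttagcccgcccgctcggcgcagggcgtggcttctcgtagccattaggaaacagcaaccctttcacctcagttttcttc
KEAP1, chr19:10502772-10503021, minus strand: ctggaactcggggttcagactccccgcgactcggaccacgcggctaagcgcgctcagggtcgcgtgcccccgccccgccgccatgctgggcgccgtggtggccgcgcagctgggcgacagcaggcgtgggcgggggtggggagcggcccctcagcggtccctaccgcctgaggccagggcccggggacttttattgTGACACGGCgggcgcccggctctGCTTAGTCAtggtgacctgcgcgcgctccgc
The core was present in 4 windows of 3 genes, against 3830 of 35116 windows (10.9%) over all RefSeq promoters. In GCLM the match lay on the opposite strand, 34 to 26 bases before the start. Both windows of TXNRD1, which encodes the cytosolic thioredoxin reductase, held 1 match each, at 99 to 91 bases before the first start and at 102 to 94 bases before the second. The second KEAP1 window held 2 matches, and the one at 31 to 23 bases before the start had the same 9 letters as the match in GCLM. The AP-1 site TGACTCA, which also matches the core when GC follows it, was present in 1476 windows (4.2%) and in 0 of the 11 windows of the member genes. The windows of NFE2L2, GCLC, TXN, NQO1 and SRXN1 and the first window of KEAP1 held neither sequence. Presence of the core did not follow the rise, since KEAP1 held it without being called and those other genes rose. Bases farther than 250 from a start were not searched, so elements there would be missed. A match describes the letters of a window, and no binding was measured.

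Total counts per library ranged from 34282764 to 37758569. A filter on low counts left 13066 genes, to which edgeR's quasi-likelihood test was applied, and a gene was called when its Benjamini-Hochberg adjusted p was under 0.05. A called gene was a differentially expressed gene (DEG) when its fold change was also above 2 or under 0.5. Of all tested genes, 73.1% were called and 23.9% were DEGs, with a median log2 fold change of -0.0012. The biliary epithelial marker KRT7 had a mean of 1785 CPM (counts scaled to a common library size with edgeR's TMM factors) in control and 2784 CPM in ILL libraries, and EPCAM had 254 and 300.1 CPM. The other biliary markers had lower means in ILL libraries, at 2126 and 1875 CPM for KRT19, 3245 and 2897 CPM for KRT8, 1410.3 and 798 CPM for KRT18 and 66.1 and 44.7 CPM for SOX9. The leukocyte markers PTPRC and CD3E had at most 9 counts in any library, while the macrophage marker CD68 had a mean of 37.8 CPM in control and 113 CPM in ILL libraries. Among hepatocyte, fibroblast and endothelial markers, control and ILL means were 10.2 and 14.9 CPM for COL1A1 and 5.88 and 9.52 CPM for ALB. They were 2.45 and 2.73 CPM for LUM and 1.17 and 0.938 CPM for APOA1. TTR, DCN, PECAM1, CDH5 and VWF had means under 1 CPM in both groups. The part of these differences in the results below was not tested.

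ILL-treated libraries held more RNA of 9 of the 10 genes. All 10 passed the filter on low counts, and 9 were called higher, 0 were called lower and KEAP1 was not called, while 36.2% of all tested genes were called higher. DEGs among them were HMOX1, TXNRD1, GCLC and SRXN1, all higher, and 12.5% of all tested genes were DEGs in that direction. The log2 fold changes ranged from 0.13 for KEAP1 to 2.36 for HMOX1, with a median of 0.91. In the same 9 genes the CPM of the ILL libraries did not overlap with those of the control libraries, while groups did not overlap in 75.4% of all tested genes, and in 37.5% with ILL higher. As the 10 genes were chosen with earlier results of these data known, these counts describe them and are no independent test. The 10 genes together took 0.161% to 0.165% of the counts of a control library and 0.282% to 0.312% of those of an ILL library. These are bulk values, in which a change in the makeup of the cells and a change in RNA per cell cannot be told apart.

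**Figure D1:**
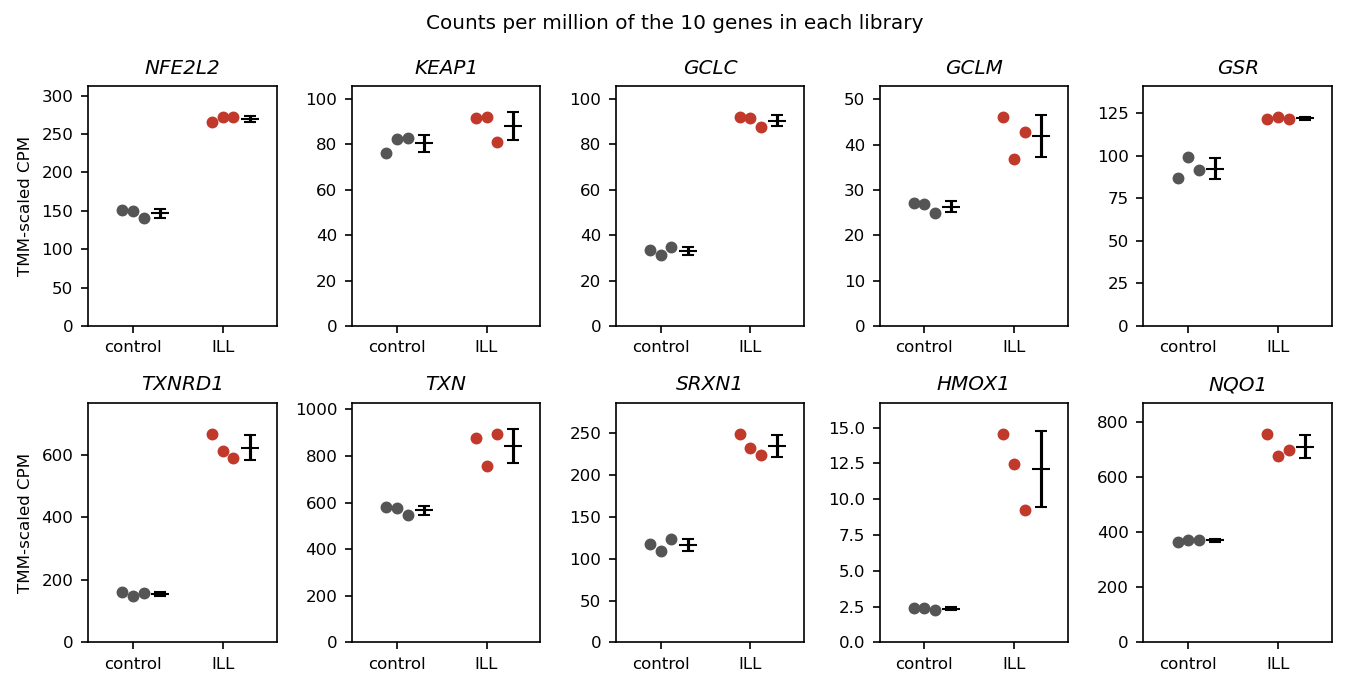
TMM-scaled CPM of the 10 genes (1 panel each, vertical axis from 0) in the control and ILL libraries. Points are libraries and bars are the mean with its SD (n = 3). The points of the groups overlap in the KEAP1 panel and are apart in the other 9, with HMOX1 the gene of lowest CPM.

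The sensor pair was examined first. NFE2L2 (GRCh38, chr2:177227595-177392697, minus strand), which encodes NRF2 itself, had 151, 149 and 139.9 CPM in the control libraries and 265, 271 and 272 CPM in the ILL libraries. Every ILL library was above every control library, and the means were 147 ± 5.96 and 269 ± 3.85 CPM (SD, n = 3). NFE2L2 thus rose 1.84-fold (95% interval 1.71 to 1.98; log2 fold change 0.88 ± 0.05 SE, adjusted p = 9.88e-14 by edgeR's quasi-likelihood test), below the cutoff for a DEG. In GENCODE 29 its exons share 1054 bases with the transcript AC019080.1 on the same strand and 190 bases with the antisense transcript AC079305.1, neither of which was analysed here. They also share 54 bases with AGPS on the opposite strand, a gene with 4939 to 5614 counts in control and 3094 to 3429 counts in ILL libraries.

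KEAP1 (chr19:10486120-10503741, minus strand), the adaptor that hands NRF2 to its ubiquitin ligase, had 76.3, 82.3 and 82.7 CPM in control and 91.6, 92.0 and 80.9 CPM in ILL libraries. ILL replicate 3 lay within the range of the control libraries. The means were 80.4 ± 3.60 and 88.2 ± 6.27 CPM (SD, n = 3), a 1.10-fold difference (95% interval 1.003 to 1.20) that did not pass the test (log2 fold change 0.13 ± 0.06 SE, adjusted p = 0.0593 by edgeR). Without ILL replicate 3 the difference passed, with a log2 fold change of 0.19 and an adjusted p of 0.0126 by edgeR. The interval is not adjusted over the tested genes, whereas the call is, so it can lie above no change without a call. The p before adjustment was 0.0438 by edgeR. The interval leaves room for an increase of up to 1.20-fold.

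Glutathione is made in sequence by glutamate-cysteine ligase and glutathione synthetase, and its oxidized form is recycled by glutathione reductase. GCLC (chr6:53497341-53616970, minus strand), the catalytic subunit of the ligase and the rate-limiting step, had 33.5, 31.2 and 34.7 CPM in control and 91.9, 91.8 and 87.7 CPM in ILL libraries. The groups lay far apart, and within each group the libraries differed little, with coefficients of variation of 5.45% and 2.65%. GCLC rose 2.73-fold (95% interval 2.49 to 2.99; log2 fold change 1.45 ± 0.06 SE, adjusted p = 3.72e-16 by edgeR).

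GCLM (chr1:93885205-93909456, minus strand), the modifier subunit that raises the efficiency of the ligase, had 27.2, 26.9 and 24.8 CPM in control and 46.0, 36.9 and 42.8 CPM in ILL libraries. The groups did not overlap, although the ILL libraries were spread more widely, with a coefficient of variation of 11.1% against 4.87% in control. Its rise of 1.59-fold (95% interval 1.42 to 1.79; log2 fold change 0.67 ± 0.08 SE, adjusted p = 7.27e-08 by edgeR) was below the cutoff for a DEG. Its promoter window is the first of those shown above, with a single match to the core.

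GSR (chr8:30678061-30727999, minus strand), glutathione reductase, had 86.6, 99.0 and 91.5 CPM in control and 121, 123 and 122 CPM in ILL libraries. The ILL libraries nearly coincided, at 122 ± 0.609 CPM against 92.4 ± 6.2 CPM in control (SD, n = 3), and all were above the highest control library. GSR rose 1.32-fold (95% interval 1.215 to 1.43; log2 fold change 0.40 ± 0.06 SE, adjusted p = 1.11e-06 by edgeR), which was the smallest rise among the 9 called genes.

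In the thioredoxin system, thioredoxin reduces disulfides in proteins and thioredoxin reductase restores it with electrons from NADPH. TXNRD1 (chr12:104215779-104350305, plus strand) had 161, 148 and 157 CPM in control and 666.5, 611 and 589 CPM in ILL libraries. The lowest ILL library was far above the highest control library. TXNRD1 rose 4.002-fold (95% interval 3.69 to 4.335; log2 fold change 2.001 ± 0.06 SE, adjusted p = 4.41e-20 by edgeR) and stood at place 487 of the 13066 tested genes when ordered from the largest log2 fold change. GENCODE 29 lists 24 transcripts of TXNRD1, and the gene counts do not separate the transcripts that begin at the starts shown above.

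TXN (chr9:110243811-110256640, minus strand), cytosolic thioredoxin, had 582, 575 and 546 CPM in control and 877, 758 and 896 CPM in ILL libraries. ILL replicate 2 was the lowest of its group and was still above all control libraries. TXN rose 1.485-fold (95% interval 1.37 to 1.61; log2 fold change 0.57 ± 0.06 SE, adjusted p = 1.98e-09 by edgeR). GENCODE 29 names 7 pseudogenes of TXN, which were not analysed here, and how reads were divided between TXN and its copies is uncertain.

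SRXN1 (chr20:646615-653370, minus strand), sulfiredoxin, restores overoxidized peroxiredoxins and had 118, 109 and 123 CPM in control and 249, 232 and 224 CPM in ILL libraries. The groups did not overlap, at 117 ± 7.17 and 235 ± 13.2 CPM (SD, n = 3). SRXN1 rose 2.01-fold (95% interval 1.85 to 2.19; log2 fold change 1.01 ± 0.06 SE, adjusted p = 6.73e-14 by edgeR). It was the DEG nearest to the fold cutoff of 2, and without control replicate 2 or ILL replicate 1 its log2 fold change was 0.96 in either case, below that cutoff while still called. Its exons share 2292 bases with the protein-coding gene AL121758.1 on the same strand, which was not analysed here.

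The last pair holds inducible enzymes commonly used as readouts of NRF2 activity. HMOX1 (chr22:35380361-35394214, plus strand), heme oxygenase 1, splits heme into biliverdin, iron and carbon monoxide. It was the member with the lowest counts, with 94, 85 and 79 counts (2.42, 2.42 and 2.23 CPM) in control and 510, 429 and 324 counts (14.6, 12.5 and 9.27 CPM) in ILL libraries. The ILL libraries differed more from each other than for any other member, with a coefficient of variation of 22.1%, yet the lowest of them was above all control libraries. HMOX1 rose 5.12-fold (95% interval 3.99 to 6.58; log2 fold change 2.36 ± 0.17 SE, adjusted p = 9.93e-12 by edgeR), and between 2.20 and 2.52 on the log2 scale when each library was left out in turn.

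NQO1 (chr16:69706996-69726951, minus strand), a reductase that turns quinones into hydroquinones, had 365, 372 and 373 CPM in control and 757, 677 and 699 CPM in ILL libraries. The groups did not overlap, at 370.3 ± 4.401 and 711 ± 41.7 CPM (SD, n = 3). NQO1 rose 1.92-fold (95% interval 1.79 to 2.06; log2 fold change 0.94 ± 0.05 SE, adjusted p = 1.92e-14 by edgeR). It lay just outside the DEG cutoff that SRXN1 just passed, and the intervals of both genes include a fold change of 2. In GENCODE 29 the exons of NQO1 share 575 bases with an antisense transcript, and those of GCLC share 529 bases with a long noncoding RNA on the same strand. Whether counting used strand is not given in the sources used here, so these reads cannot be assigned with certainty.

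**Figure D2:**
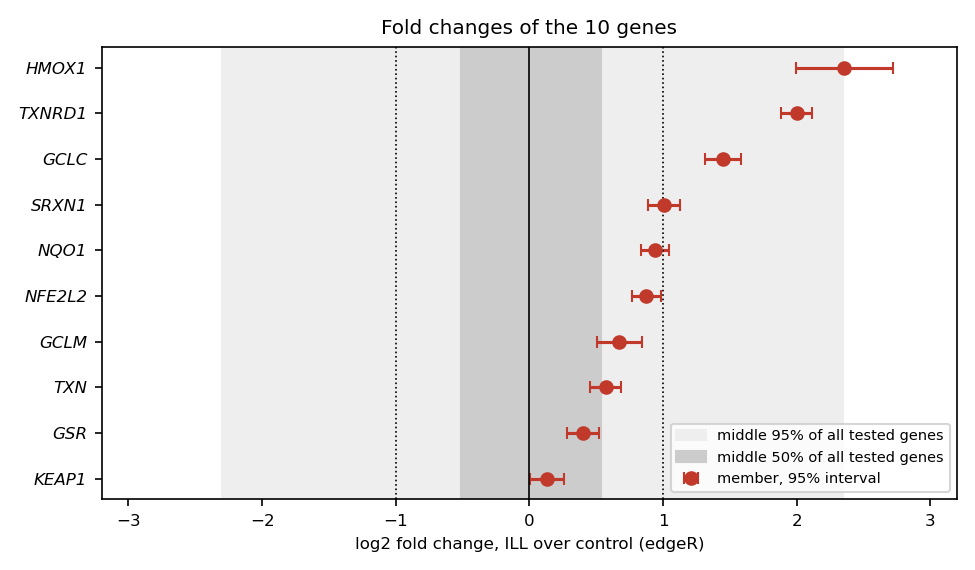
Log2 fold change of each of the 10 genes, ILL over control, as fitted by edgeR, with its 95% interval. The shaded bands hold the middle 50% (-0.51 to 0.54) and the middle 95% (-2.30 to 2.35) of the 13066 tested genes. HMOX1 and TXNRD1 lie farthest right, while the KEAP1 interval ends close to 0.

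Levels were compared between genes as FPKM, which divides by gene length. In control libraries TXN was the highest by a wide margin, with a mean of 789 ± 30.3 FPKM, followed by NQO1 with 150.4 ± 1.23 FPKM (SD, n = 3). SRXN1 (47.3 FPKM), NFE2L2 (47.3 FPKM), TXNRD1 (40.4 FPKM), GSR (31.2 FPKM) and KEAP1 (27.2 FPKM) formed the middle of the order. GCLC (9.86 FPKM), GCLM (4.22 FPKM) and HMOX1 (1.55 FPKM) were lowest. Only SRXN1 and NFE2L2 had overlapping ranges among neighbours in that order.

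In ILL libraries TXN (1117 ± 104 FPKM) and NQO1 (275 ± 17.8 FPKM) kept the first places, and TXNRD1 stood next with 154 ± 10.6 FPKM (SD, n = 3), ahead of SRXN1 (90.8 FPKM) and NFE2L2 (82.7 FPKM). TXNRD1 thus moved from place 5 to place 3. GSR (39.2 FPKM), KEAP1 (28.4 FPKM) and GCLC (25.7 FPKM) followed, and the ranges of KEAP1 and GCLC overlapped. HMOX1 (7.60 ± 1.70 FPKM) and GCLM (6.41 ± 0.747 FPKM) closed the order with overlapping ranges, so their order in ILL libraries is not resolved. TXN was the gene with the highest FPKM in both groups although its fold change was among the smaller ones, and HMOX1 had the largest fold change from the lowest control level.

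**Figure D3:**
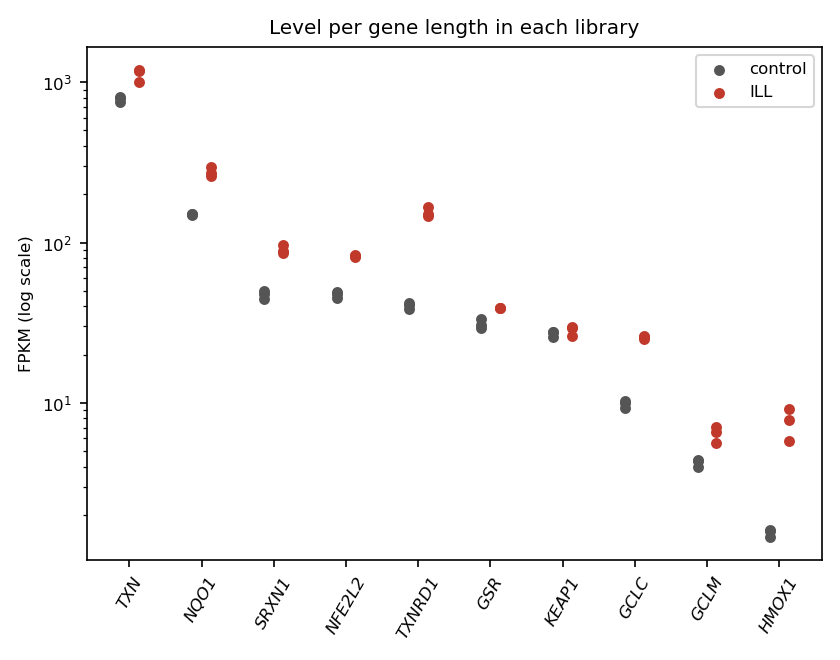
FPKM of the 10 genes on a logarithmic axis, ordered by their control mean from TXN to HMOX1, with 1 point per library. Points of the ILL libraries lie above those of the control libraries except in KEAP1, and TXNRD1 passes SRXN1 and NFE2L2 in the ILL libraries.

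Members that work together were then compared as pairs. In each of 4 pairs the ratio of FPKM values within a library was computed, and the groups were compared by a two-sided exact permutation test, for which 3 libraries against 3 cannot give a p below 0.1. NFE2L2 to KEAP1 was 1.89, 1.73 and 1.61 in control libraries and 2.76, 2.81 and 3.201 in ILL libraries. The ratio of the transcription factor to its inhibitor was 1.68-fold higher on average, without overlap between groups (exact permutation p = 0.1, and 0.1 after adjustment over the 4 pairs).

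GCLM to GCLC was 0.438, 0.465 and 0.385 in control and 0.270, 0.216 and 0.263 in ILL libraries. Relative to the catalytic subunit there was less of the modifier subunit in each ILL library than in any control library, by 1.72-fold on average (exact permutation p = 0.1). TXNRD1 to TXN, the reductase relative to its substrate, was 0.0519, 0.0481 and 0.0539 in control and 0.142, 0.151 and 0.123 in ILL libraries. That is a 2.70-fold higher ratio (exact permutation p = 0.1). HMOX1 to NQO1 was 0.0108, 0.0105 and 0.00970 in control and 0.0312, 0.0299 and 0.0215 in ILL libraries, a 2.63-fold difference (exact permutation p = 0.1). In each of the 4 pairs the groups were apart and the p was the smallest that the design allows. These are ratios of RNA and not of protein subunits, and the level of each ratio rests on the gene lengths used.

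**Figure D4:**
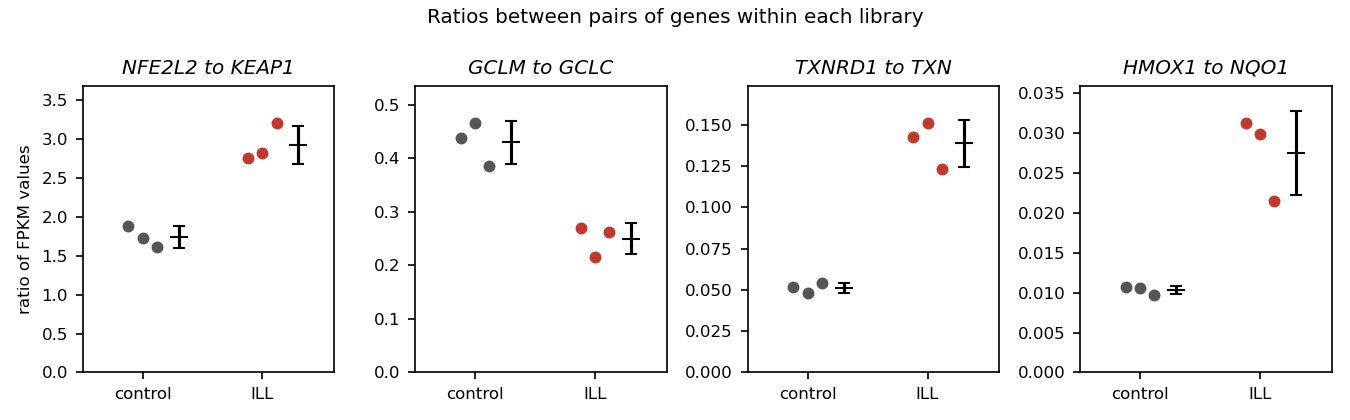
Ratio of FPKM values within each library for NFE2L2 to KEAP1, GCLM to GCLC, TXNRD1 to TXN and HMOX1 to NQO1, with 1 point per library, the mean with its SD (n = 3) and separate vertical axes from 0. ILL libraries lie above control libraries in all panels but GCLM to GCLC, where they lie below.

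To set the members beside the rest of the pathway, 6 lists of 123 other genes were examined, of which 114 passed the filter. Of these, 65 were called higher, 28 lower and 21 were not called, and 28 were DEGs higher and 7 DEGs lower. The share called higher was 57% against 36.2% of all tested genes, and the median log2 fold change was 0.40 against -0.0012. The share called lower was 24.6% against 36.9%. DEGs higher made up 24.6% against 12.5%, and DEGs lower 6.14% against 11.4%. The lists were chosen with earlier results of these data known, so these shares describe the lists and are no independent test. The lists differed widely, from the quinone, carbonyl and NADPH enzymes, where 20 of 24 were called higher, to the wider thioredoxin system, where as many were called lower as higher.

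Among regulators and partners of NRF2, 9 of 18 tested genes were called higher, 4 lower and 5 were not called, with a median log2 fold change of 0.15. The shares called higher and lower were 50% and 22.2%, against 36.2% and 36.9% of all tested genes. The small MAF genes, whose products pair with NRF2 on DNA, all rose. MAFK went from 36.8, 40.1 and 38.7 CPM to 124, 123 and 116 CPM (log2 fold change 1.65, adjusted p = 9.86e-18 by edgeR), MAFG rose by 1.31 and MAFF by 0.82 on the log2 scale. BACH1, a repressor that competes with NRF2 for the same elements and restrains HMOX1, rose from 831, 761 and 778 counts to 1616, 1589 and 1382 counts. Its log2 fold change of 1.02 (adjusted p = 1.82e-11 by edgeR) was just past the DEG cutoff and was 0.98 without ILL replicate 1 or 2. SQSTM1, the autophagy receptor p62, which binds KEAP1, rose most in this list, from 211, 199 and 222 CPM to 1175, 1125 and 1081 CPM (5.34-fold, adjusted p = 7.92e-22 by edgeR).

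The partners of KEAP1 in the ligase moved the other way by small amounts. CUL3, the scaffold, was at 104, 108 and 108 CPM in control and 91.1, 84.5 and 88.3 CPM in ILL libraries (log2 fold change -0.28, adjusted p = 9.87e-05 by edgeR). RBX1, the RING subunit, fell by 0.33 on the log2 scale (adjusted p = 0.000683 by edgeR). PGAM5, a mitochondrial phosphatase that binds KEAP1, fell from 86.3, 94.1 and 88.4 CPM to 39.5, 43.2 and 41.3 CPM (log2 fold change -1.12). It was the single DEG of the list in that direction and was named by a rule that requires groups without overlap. The groups of CUL3 and RBX1 did not overlap either, as in 75.4% of all tested genes.

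Of the genes for glutathione synthesis, transport and breakdown, 10 of 20 tested were called higher, 7 lower and 3 were not called. The share called higher was 50% against 36.2% of all tested genes, and the 35% called lower was near their 36.9%. There were 8 DEGs higher (40%) and 4 lower (20%), against 12.5% and 11.4% of all tested genes. Genes of both supply and breakdown were among those that rose. SLC7A11, the cystine antiporter that brings in the limiting amino acid of glutathione, rose from 50.5, 47.0 and 46.5 CPM to 413, 349 and 344 CPM (7.68-fold, adjusted p = 1.45e-21 by edgeR), and its heavy chain SLC3A2 rose by 1.26 on the log2 scale. CBS, which starts the route from homocysteine to cysteine, rose from 1.98, 0.825 and 0.933 CPM to 10.1, 14.8 and 12.8 CPM (log2 fold change 3.31 ± 0.23 SE). GSS, glutathione synthetase, which completes the synthesis that GCLC and GCLM start, fell from 106, 113 and 114 CPM to 93.7, 88.4 and 86.8 CPM (log2 fold change -0.31, adjusted p = 3.47e-05 by edgeR).

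CHAC1, which degrades reduced glutathione inside the cell, had the largest log2 fold change of any list gene, with 6.28, 5.04 and 3.65 CPM in control and 94.6, 97.2 and 102 CPM in ILL libraries (19.5-fold, adjusted p = 7.42e-21 by edgeR). Its paralog CHAC2, which catalyses the same reaction, fell from 26.9, 26.4 and 22.7 CPM to 6.60, 5.35 and 5.75 CPM (log2 fold change -2.10, adjusted p = 2.41e-14 by edgeR). GGCT, which acts on the γ-glutamyl dipeptides released in breakdown, fell by 1.91 on the log2 scale, and ABCC4, an exporter that can carry glutathione, fell by 1.87. CHAC2, GGCT and ABCC4 were named by a rule that requires groups without overlap. The groups of CHAC1 did not overlap either, as in 75.4% of all tested genes.

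Among 23 tested enzymes that use glutathione, 11 were called higher, 6 lower and 6 were not called, with a median log2 fold change of 0.20. The shares called higher and lower were 47.8% and 26.1%, against 36.2% and 36.9% of all tested genes. DEGs higher made up 8.7% of them, close to the 12.5% of all tested genes, and none was a DEG lower. The DEGs were GLRX, a glutaredoxin that removes glutathione from proteins, at 4.20, 6.60 and 4.78 CPM in control and 21.5, 20.8 and 22.6 CPM in ILL libraries, and GPX2, an epithelial glutathione peroxidase, at 74.0, 74.8 and 83.2 CPM in control and 194, 168 and 188 CPM in ILL libraries. Both genes were named by a rule that requires groups without overlap.

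In the wider thioredoxin system 8 of 19 genes were called higher, 8 lower and 3 were not called, and the median log2 fold change was -0.09. The share was 42.1% in either direction, near the 36.2% called higher and 36.9% called lower of all tested genes. Of the mitochondrial counterparts of TXN and TXNRD1, one was called lower and the other was not called. TXN2, mitochondrial thioredoxin, had 107.5, 109.9 and 113 CPM in control and 83.7, 93.9 and 100.1 CPM in ILL libraries (log2 fold change -0.25, adjusted p = 0.000897 by edgeR). TXNRD2, the mitochondrial reductase, had 35.9, 34.9 and 33.6 CPM in control and 31.6, 31.7 and 33.2 CPM in ILL libraries and did not pass the test (log2 fold change -0.12, adjusted p = 0.147 by edgeR), although with scaling by library size only it was called lower (log2 fold change -0.19, adjusted p = 0.0233). TXNIP, an inhibitor that binds reduced thioredoxin, rose from 251, 249.8 and 250.1 CPM to 638, 619 and 617 CPM (log2 fold change 1.32, adjusted p = 6.14e-18 by edgeR). PRDX2, a cytosolic peroxiredoxin that passes electrons from thioredoxin to peroxides, fell from 244, 253.5 and 267 CPM to 125, 122 and 126 CPM. Its log2 fold change of -1.03 was just past the DEG cutoff and was -0.9999 without control replicate 3.

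For heme breakdown and iron handling 7 of 10 genes were called higher and 2 lower. These shares of 70% and 20% compare with 36.2% and 36.9% of all tested genes. HMOX2, the constitutive heme oxygenase, fell while HMOX1 rose, with 113, 107 and 125 CPM in control and 88.6, 85.2 and 85.9 CPM in ILL libraries (log2 fold change -0.41, adjusted p = 1.47e-06 by edgeR). Of the biliverdin reductases that take up the product of heme oxygenase, BLVRB rose from 67.3, 68.9 and 77.7 CPM to 126, 109.9 and 120.0 CPM, and BLVRA did not pass the test (log2 fold change -0.02, adjusted p = 0.83 by edgeR). The ferritin genes, which store released iron, both rose. FTH1 went from a mean of 4157 to 10246 CPM (log2 fold change 1.30) and FTL from 2396 to 4269.6 CPM (log2 fold change 0.83). Ferritins have many processed pseudogenes, so their counts may include reads from other loci. SLC40A1, the iron exporter ferroportin, rose by 1.55 ± 0.40 SE on the log2 scale from under 1 CPM, and FLVCR1, first described as a heme exporter, fell by 1.48.

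Among the 6 lists, the quinone, carbonyl and NADPH enzymes had the highest share of genes called higher, with 20 of 24 (83.3%). Of all tested genes, 36.2% were called higher and 36.9% lower. In this list 1 gene was called lower and 3 were not called, and the median log2 fold change was 0.73. It held 9 DEGs higher (37.5%, against 12.5% of all tested genes) and 0 lower. Despite its name, the list also holds genes of other functions, such as TRIM16, TRIM16L, OSGIN1, PIR and ABHD4, all of which were called higher. AKR1C1, an aldo-keto reductase of steroids and carbonyls, rose from 12.6, 14.8 and 16.2 CPM to 109.9, 87.6 and 87.1 CPM (log2 fold change 2.71, adjusted p = 2.76e-18 by edgeR), and AKR1C2 rose by 2.21 on the log2 scale. These paralogs are nearly identical in sequence and their reads may be divided uncertainly. ABHD4, a lipid hydrolase, rose by 2.38 on the log2 scale. NQO2, the paralog of NQO1 that does not use NADPH, was the gene of the list that was called lower, with 13.8, 11.3 and 11.7 CPM in control and 10.1, 10.5 and 9.27 CPM in ILL libraries. Its call (log2 fold change -0.30, adjusted p = 0.0285 by edgeR) did not hold without control replicate 1 (adjusted p = 0.171) or ILL replicate 3 (adjusted p = 0.103 by edgeR).

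**Figure D5:**
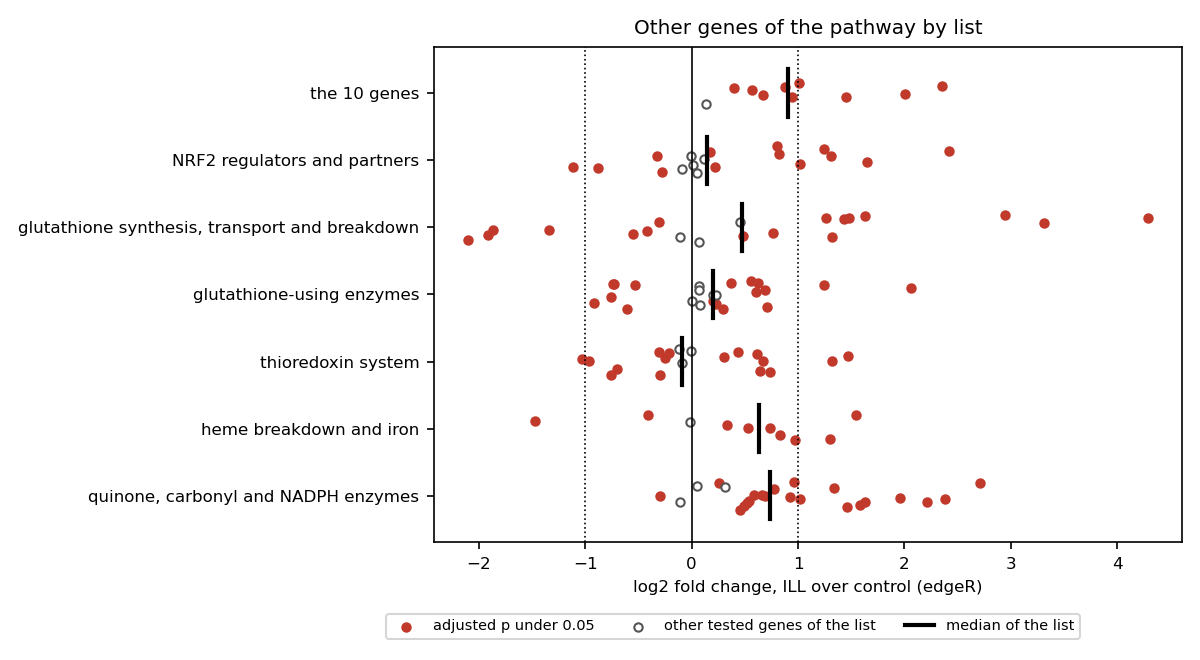
Log2 fold change, ILL over control (edgeR), of the 10 genes and of the tested genes of the 6 other lists, with filled points for an adjusted p under 0.05, open points for the others, and a bar at each median. Dotted lines mark 2-fold changes. The median is highest for the 10 genes (0.91) and the quinone, carbonyl and NADPH enzymes (0.73) and lies at -0.09 for the wider thioredoxin system.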

How the data were processed

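RNA-seq libraries of HCCC9810 cells treated with ILL or vehicle were compared, with 3 libraries per group, taken from the sample labels. For each library the authors deposited a column of raw counts and a column of FPKM, with genes given by symbol. All 88055 FPKM values above 0 implied, with the count and the library total, a gene length within 0.1% of a whole number. Long genes meet that tolerance at any length, so the check cannot show that 1 length was used in all libraries. For each member the implied length averaged over the libraries was a whole number, such as 3180 bases for NFE2L2. The submitters' processing notes name DESeq2 and GRCh38, and the aligner, counter, annotation and strand setting are not given in the sources used here.

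Low counts were removed by filterByExpr of edgeR 4.0.16 under R 4.3.3. After TMM scaling, edgeR's quasi-likelihood test was fitted across all 13066 remaining genes, with Benjamini-Hochberg adjustment over all of them. CPM values are TMM-scaled, and intervals are 95% intervals of that fit, not adjusted over the genes. The common biological coefficient of variation estimated by edgeR was 0.0717. For genes with few counts, such as HMOX1 in control libraries, CBS and SLC40A1, counting error also limits the precision. DEG cutoffs follow the paper's methods. Gene positions and exons come from GENCODE 29 (GRCh38), and promoters from RefSeq (GRCh38.p14).

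The members, lists, tests and alternatives were chosen with earlier results of these data known. The text names all members, the closest partners marked in each list, and up to 3 DEGs from either end of a list whose groups did not overlap and whose mean reached 1 CPM. MSRB3, named by that rule in the thioredoxin list, had a log2 fold change of 1.47. Other settings tried were the size factors of DESeq2, library size as the only scaling, a low-count filter left out or raised to 10 counts per library, the Wald test of DESeq2 1.42.0, a block for the replicate number, fits with 1 library removed, no fold cutoff, and limma 3.58.1 on log2 of FPKM plus 1 or 0.1, with and without a mean FPKM of at least 1.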

Additional observations from a re-analysis of the deposited data

How the results depend on the processing

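Over 15 alternatives each, the 10 genes gave 150 values, of which 147 had the same direction and call as reported. The other 3 were of KEAP1, which passed with DESeq2's size factors (adjusted p = 0.0414), under the filter of 10 counts per library (0.0369) and without ILL replicate 3 (0.0126), within a range of 0.0126 to 0.449 over all its alternatives. No called gene among those named changed direction, while BLVRA, not called, was at 0.0025 and 0.0023 on the log2 scale without control replicate 2 and ILL replicate 3. Besides the losses given with NQO2, its call was also lost under DESeq2's Wald test (adjusted p = 0.0516). SRXN1 was called throughout but was below the DEG cutoff with scaling by library size only (log2 fold change 0.94) and with limma (0.93 to 0.94). So was BACH1, at 0.95 by library size and 0.79 to 0.93 with limma. TXNRD2 was also called lower with limma (adjusted p of 0.0178 to 0.0181). On log2(FPKM + 1), a scale that understates low genes, limma gave 1.73 for HMOX1, 3.50 for CHAC1, 1.73 for CBS, and values below the DEG cutoff for MSRB3 (0.91) and SLC40A1 (0.37). The cause of the other changes was not tested.

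Without a fold cutoff the DEGs became the called genes, 9 of the 10 genes, 65 higher and 28 lower in the lists, and 4726 higher and 4821 lower of all genes, against 1635 and 1485 DEGs. With limma on log2(FPKM + 1) all DEGs numbered 668 higher and 923 lower, or 680 and 929 with no filter on low values, and on log2(FPKM + 0.1) 909 were higher and 1247 lower. Under the last setting the median over all genes was -0.10 on the log2 scale. Leaving out each library gave 9 to 10 members called higher and 3 to 4 DEGs, 26 to 30 list DEGs higher and 6 to 8 lower, and 1610 to 1682 DEGs higher and 1451 to 1501 lower among all genes. Log2 differences of the ratios then ranged from 0.68 to 0.81 for NFE2L2 to KEAP1, from -0.86 to -0.68 for GCLM to GCLC, from 1.37 to 1.52 for TXNRD1 to TXN and from 1.30 to 1.56 for HMOX1 to NQO1.

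Deviations of same-numbered libraries had correlations of -0.043 to 0.001, against -0.039 to 0.050 for differently numbered ones. The numbers were not taken as pairs in the main fit, although 3 libraries per group cannot exclude pairing. With the replicate number as a block, 9 members were called higher and 4 were DEGs, and all genes gave 1627 DEGs higher and 1484 lower.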

Other observations

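Of the 123 list genes, 9 did not pass the filter on low counts, with at most 26 counts in any library. GSTM1, GSTM5 and GSTA2, which encode glutathione transferases, had 0 counts in all 6 libraries. In 1 library taken alone, 0 counts allows an expected count of up to about 3 at 95% confidence. The 6 libraries together allow less per library. GSTA1 and GSTM2 had 1 count in all libraries together. BACH2, a relative of BACH1 best known from B cells, had 6, 0 and 2 counts in control and 26, 9 and 11 counts in ILL libraries, and was not tested.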
